A study of Mus musculus with 6 samples.

Results

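Carbonic anhydrases, the chloride channel gene Cftr and aquaporins move acid, bicarbonate, chloride and water across the gut lining, and 10 of these genes were followed in mouse crypt epithelium: Car1, Car2, Car4, Car8, Car12, Cftr, Aqp1, Aqp4, Aqp8 and Aqp11. They were chosen by symbol, and all 10 were found among the 24930 genes of the deposited table. The tissue was collected at day 4 after induction of a mutation in 1 of the 2 β-catenin alleles, which the deposited columns mark as a heterozygous exon change. GOF/+ crypts gave 3 libraries, and Control crypts gave 3. The labels name neither strain, age, sex, inducing agent, Cre driver nor the stretch of intestine for either group, and separate animals are not stated. Each p-value therefore reflects the spread among these 6 libraries, some of which may be technical. The epithelial genes Epcam and Krt8 were high in every library, at 675 to 1054 and 1682 to 2128 units in GOF/+ libraries and at 594 to 783 and 1469 to 1635 units in Control libraries.

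Carbonic anhydrases turn carbon dioxide and water into bicarbonate and a proton, and they supply both ions to the exchangers of the gut surface. CFTR is an anion channel opened by cyclic AMP that lets chloride and bicarbonate out of crypt cells, and water follows the salt, in part through aquaporins. In the intestine this system keeps crypts flushed and mucus hydrated, and its parts are distributed along the crypt axis and along the length of the gut.

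Values are normalized abundances, called units here. To find the step of the lowest values, genes below 0.3 units with a single annotated transcript were searched. The 478 genes kept were those whose scaled values were whole multiples of their smallest, within 0.03. Whole steps in this set thus follow from the selection, and genes without them were not counted. The size of the step followed the inverse of transcript length (Spearman's rho of 0.907 across genes, a description), so levels of different genes can be compared per length. If the step is 1 read, 1 unit stood for about 13.3 reads per 1000 bases of transcript in Control replicate 1. The relative number of reads per unit ran from 0.886 to 1.35 in GOF/+ libraries and from 1.00 to 1.42 in Control libraries. GOF/+ replicate 3 stood apart in several marker lists given below, and log2 differences without it are given for Car2, Car4, Cftr, Aqp1, Aqp4, Aqp3, Aqp7, Ptger4, Slc9a3r1, Kcnq1 and Slc4a7.

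The promoters of Car4 and Aqp1 are shown because these were the members whose values did not overlap between groups. Each stretch holds 250 bases before and 50 after the RefSeq start of the gene on GRCm38.p6, read 5′ to 3′ on the + strand, and capitals mark the letters TATAAA, the sole motif searched that was found in either.
Car4, chr11:84957504-84957803: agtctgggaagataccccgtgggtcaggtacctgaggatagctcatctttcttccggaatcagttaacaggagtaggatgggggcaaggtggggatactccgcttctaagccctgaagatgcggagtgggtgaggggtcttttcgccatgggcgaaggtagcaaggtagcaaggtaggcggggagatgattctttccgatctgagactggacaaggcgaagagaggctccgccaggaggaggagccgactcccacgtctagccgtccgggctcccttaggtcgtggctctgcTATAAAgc
Aqp1, chr6:55336049-55336348: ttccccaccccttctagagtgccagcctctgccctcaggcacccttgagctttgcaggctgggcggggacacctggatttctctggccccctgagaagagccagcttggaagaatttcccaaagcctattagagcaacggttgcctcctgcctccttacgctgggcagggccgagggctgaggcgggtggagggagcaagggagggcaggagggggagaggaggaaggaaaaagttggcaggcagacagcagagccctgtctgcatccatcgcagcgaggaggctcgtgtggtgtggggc
The motifs searched on both strands were ATCAAAG and TTCAAAG for the TCF/LEF factors through which β-catenin acts, CAAAGTC for HNF4, which can share the letters CAAAG with the first pair, TTTATGG and TTTATTG for CDX2, and TATAAA. Of the 6 members with a promoter in the RefSeq table (Car4, Car12, Cftr, Aqp1, Aqp8 and Aqp11), 0 held a TCF/LEF match, against 8.65% of 32851 promoters of this length. 0 held the HNF4 letters, against 4.44%. Aqp8 alone held a CDX2 match, against 7.20%, and Car4 alone held TATAAA, against 13.6%, where the letters lay after the annotated start.

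No member passed the test between GOF/+ and Control crypts. Car4 and Aqp1 were lower in all 3 GOF/+ libraries than in any Control library, and Cftr and Aqp4 had lower means with overlapping groups. Car2 had a higher mean. With libraries not paired, its log2 difference was above 0 only when GOF/+ replicate 3 was included. Of the 10 members, 8 averaged at least 1 unit over the libraries and were tested with limma on log2(value + 1), and 0 had an adjusted p under 0.05, against 2 of all 11837 genes tested (0.0169%). At an unadjusted p under 0.05, 2 members were lower and 0 higher, where the background was 3.59% of genes lower and 4.72% higher. The same 2 members had groups that did not overlap on the lower side, where the background was 8.37%, and 0 did on the higher side, where it was 8.34%. Of the 8 tested members 5 had lower and 3 higher means on the log2 scale, where 52.7% of all genes were lower and 47.3% higher, with a median log2 difference of -0.28, against -0.02 over all genes tested. A lower value in these bulk samples cannot tell fewer cells of a type from less RNA per cell.

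**Figure D1:**
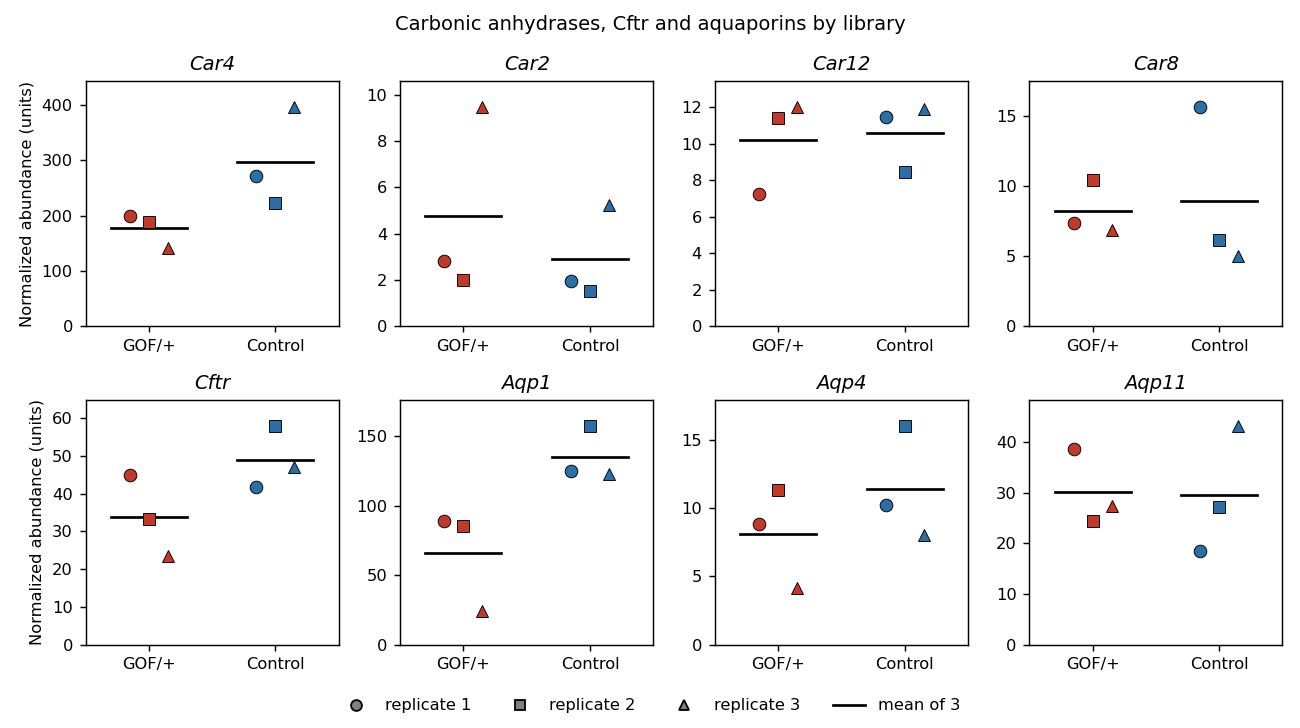
Normalized abundance in units (vertical axes from 0) of the 8 tested members, for 3 GOF/+ and 3 Control libraries; each point is a library, its shape the replicate number, and the bar the mean. Car4 and Aqp1 do not overlap between groups, at 141 to 200 and 24.0 to 88.8 units in GOF/+ libraries and 223 to 396 and 123 to 158 units in Control libraries.

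Car4 encodes a carbonic anhydrase held on the outer cell surface by a lipid anchor. It was the most abundant member in every library. It had 200, 189 and 141 units in GOF/+ replicates 1, 2 and 3, against 272, 223 and 396 units in Control replicates 1, 2 and 3. Every GOF/+ value lay below every Control value, and the gap between the groups was narrow, since GOF/+ replicate 1 and Control replicate 2 were close. The means were 177 ± 31.5 units in GOF/+ and 297 ± 89.2 units in Control libraries (SD, n = 3 each). The log2 difference was -0.72 ± 0.26 (SE, 95% interval from -1.34 to -0.10), with an unadjusted p of 0.0283 and an adjusted p of 0.589 in limma. It was -0.57 without GOF/+ replicate 3 and -0.49 without Control replicate 3, the library with the highest value.

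Car2 encodes the fast cytosolic carbonic anhydrase of many epithelia and of red cells. Its values were 2.82, 2.01 and 9.46 units in GOF/+ libraries and 1.96, 1.52 and 5.22 units in Control libraries. The third replicate of each group was the highest, and the groups overlapped. Its log2 difference of 0.46 ± 0.54 (adjusted p = 0.741 in limma) turned to -0.08 without GOF/+ replicate 3. Car12, a carbonic anhydrase anchored through the membrane, varied least of the tested members, at 7.22, 11.4 and 12.0 units in GOF/+ and 11.4, 8.47 and 11.9 units in Control libraries. Its log2 difference was -0.07 ± 0.22, with an interval from -0.60 to 0.46, and -0.45 with array weights, a fit that gives outlying libraries less say (adjusted p = 0.188 in limma).

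Car8 encodes a carbonic anhydrase-related protein that lacks the enzyme activity and is known to bind an inositol trisphosphate receptor. It had 7.40, 10.5 and 6.90 units in GOF/+ libraries and 15.7, 6.14 and 5.04 units in Control libraries. Control replicate 1 alone was high, and the other 5 libraries lay between 5.04 and 10.5 units. The log2 difference of 0.03 ± 0.38 had an interval from -0.89 to 0.94, wide enough to hold a difference of nearly 1 log2 unit in either direction. The fitted log2 difference had the opposite sign to that of the linear means, which were 8.25 ± 1.93 units in GOF/+ and 8.95 ± 5.84 units in Control libraries. Car1, the cytosolic enzyme known from red cells and the colon, was listed at 0 in all 6 libraries.

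Car1 and Car2 stand beside 2 relatives in the genome. RefSeq's order on mouse chromosome 3 runs Car13, Car1, Car3, Car2 with no other protein-coding gene between them. Their levels were unlike. Car13, another cytosolic carbonic anhydrase, had 37.8, 25.7 and 32.1 units in GOF/+ and 23.2, 31.1 and 34.4 units in Control libraries. Car3, a form known from muscle and fat, was at most 0.230 units in GOF/+ and 0.179 units in Control libraries.

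Cftr had 44.9, 33.2 and 23.4 units in GOF/+ libraries and 41.8, 58.0 and 47.1 units in Control libraries. GOF/+ replicates 2 and 3 lay below all Control libraries, whereas GOF/+ replicate 1 lay above Control replicate 1. The means were 33.8 ± 10.8 units in GOF/+ and 48.9 ± 8.24 units in Control libraries. The log2 difference was -0.56 ± 0.25 with an interval from -1.16 to 0.05 (unadjusted p of 0.0651 and adjusted p of 0.589 in limma), and it was -0.32 without GOF/+ replicate 3 and -0.11 with array weights. An antisense gene overlaps exons of Cftr in GENCODE, and whether counting used strand is not given in the sources used here, so its reads could not be told apart.

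Aqp1 encodes the water channel known best from red cells, capillaries and the kidney tubule. Its values were 88.8, 85.6 and 24.0 units in GOF/+ replicates 1, 2 and 3, against 125, 158 and 123 units in Control replicates 1, 2 and 3. All GOF/+ values were lower, and GOF/+ replicate 3 lay far below the other 2. The means were 66.1 ± 36.5 units in GOF/+ and 135 ± 19.5 units in Control libraries. The log2 difference was -1.23 ± 0.49 (interval from -2.38 to -0.07), with an unadjusted p of 0.0401 and an adjusted p of 0.589 in limma. Without GOF/+ replicate 3 it was -0.62, with an unadjusted p of 0.0105 and an adjusted p of 0.702. The summed level of 10 blood vessel genes ran from 3.63 to 6.12 units in GOF/+ and from 3.80 to 5.30 units in Control libraries. Cdh5 and Kdr did not exceed 0.0940 units in any library. Pecam1 overlapped, at 0.195 to 1.54 units in GOF/+, highest in replicate 3, and 0.152 to 0.574 units in Control libraries. Plvap did not overlap, at 0.219 to 0.335 units in GOF/+ and 0.0721 to 0.130 units in Control libraries. Most of the sum came from Esam, at 1.48 to 2.76 units in GOF/+ and 1.64 to 3.48 units in Control libraries, and from Egfl7. Egfl7 had 1.46 to 2.05 units in GOF/+ and 0.902 to 1.17 units in Control libraries, without overlap. The 8 red cell genes followed summed to 12.1 to 26.1 units in GOF/+ and 8.0 to 39.6 units in Control libraries, with Slc4a1 at 0 in 5 of 6 libraries. Their part in the level of Aqp1 was not tested.

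Aqp4, a basolateral water channel known from astroglia and from mouse crypts, had 8.84, 11.3 and 4.16 units in GOF/+ libraries and 10.3, 16.0 and 8.03 units in Control libraries. GOF/+ replicate 3 was the lowest of the 6, and the other values overlapped. The log2 difference of -0.49 ± 0.37 (adjusted p = 0.629 in limma) was -0.13 without that library. The glial genes Sox10, S100b, Gfap and Foxd3 together reached 0.0777 to 0.824 units in GOF/+ and 0.0323 to 0.103 units in Control libraries. Aqp11, a water channel of inner membranes, had 38.7, 24.4 and 27.3 units in GOF/+ libraries and 18.4, 27.2 and 43.2 units in Control libraries. Its Control values held both the lowest and the highest of the 6, and the log2 difference was 0.08 ± 0.32 (interval from -0.68 to 0.84), and 0.53 with array weights (adjusted p = 0.291 in limma).

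Aqp8, a water channel known from the colon, was close to the limit of detection. Its values were 0.159, 0 and 0.0598 units in GOF/+ libraries and 0, 0.0515 and 0.0372 units in Control libraries. Scaled by the reads per unit of each library, they were whole multiples of a single step, at 3, 0 and 1 in GOF/+ replicates 1, 2 and 3 and 0, 1 and 1 in Control replicates 1, 2 and 3. If the step is 1 read, these are the reads counted, and no difference could be seen at this depth. Colon markers were also low: Hoxd13 was listed at 0 in all 6 libraries, and Hoxb13 was at most 0.131 units in GOF/+ and 0.0565 units in Control libraries.

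In GOF/+ libraries the order of mean levels was Car4, Aqp1, Cftr, Aqp11, Car12, Car8, Aqp4, Car2, Aqp8 and Car1. In Control libraries it was Car4, Aqp1, Cftr, Aqp11, Aqp4, Car12, Car8, Car2, Aqp8 and Car1. In both groups Car4 stood clear of Aqp1 in all libraries, whereas Cftr and Aqp11 overlapped, and Car12, Car8 and Aqp4 overlapped with each other and with no fixed order. Aqp1 and Cftr overlapped in GOF/+ libraries and did not in Control libraries. Among 19202 genes above 0 in at least 1 library, the mean level was at percentile 98.1 for Car4, 95.6 for Aqp1 and 89.1 for Cftr.

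Within the family of 16 carbonic anhydrases, summed levels were 317, 299 and 253 units in GOF/+ and 371, 329 and 521 units in Control libraries. Car4 made up 63.0, 63.2 and 55.7% of them in GOF/+ libraries and 73.4, 67.7 and 76.0% in Control libraries, without overlap (exact permutation test, two-sided p = 0.1, the smallest that 3 against 3 allows). Of the 11 relatives that are no members, 3 were tested and 0 passed. Car9, the surface enzyme known to respond to low oxygen, was the most abundant of them at 57.8, 55.5 and 46.5 units in GOF/+ and 39.0, 52.9 and 61.9 units in Control libraries. Car15, a membrane-anchored enzyme, was lower in every GOF/+ library, at 2.80, 3.64 and 2.49 units, than in Control libraries, at 5.36, 4.57 and 4.44 units (log2 difference of -0.55 ± 0.17, adjusted p = 0.589 in limma).

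The aquaporins differed most in GOF/+ replicate 3. The 12 genes summed to 153, 125 and 91.3 units in GOF/+ and 157, 206 and 180 units in Control libraries. Aqp1 made up 58.2, 68.5 and 26.3% of the sum in GOF/+ libraries and 79.6, 76.5 and 68.1% in Control libraries, and the groups overlapped (exact permutation test, two-sided p = 0.2). Aqp3 and Aqp7, which carry glycerol as well as water, were the tested ones among 8 other aquaporins, and 0 passed. Aqp3 had 9.57, 1.70 and 19.9 units in GOF/+ and 0.957, 2.03 and 4.49 units in Control libraries (log2 difference of 1.40 ± 0.75, adjusted p = 0.589 in limma; 0.74 without GOF/+ replicate 3). Aqp7 had 6.43, 1.71 and 15.6 units in GOF/+ and 2.19, 2.56 and 1.44 units in Control libraries (1.20 ± 0.60, adjusted p = 0.589 in limma; 0.57 without GOF/+ replicate 3). For both, GOF/+ replicates 1 and 3 were high and GOF/+ replicate 2 lay within the Control range.

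**Figure D2:**
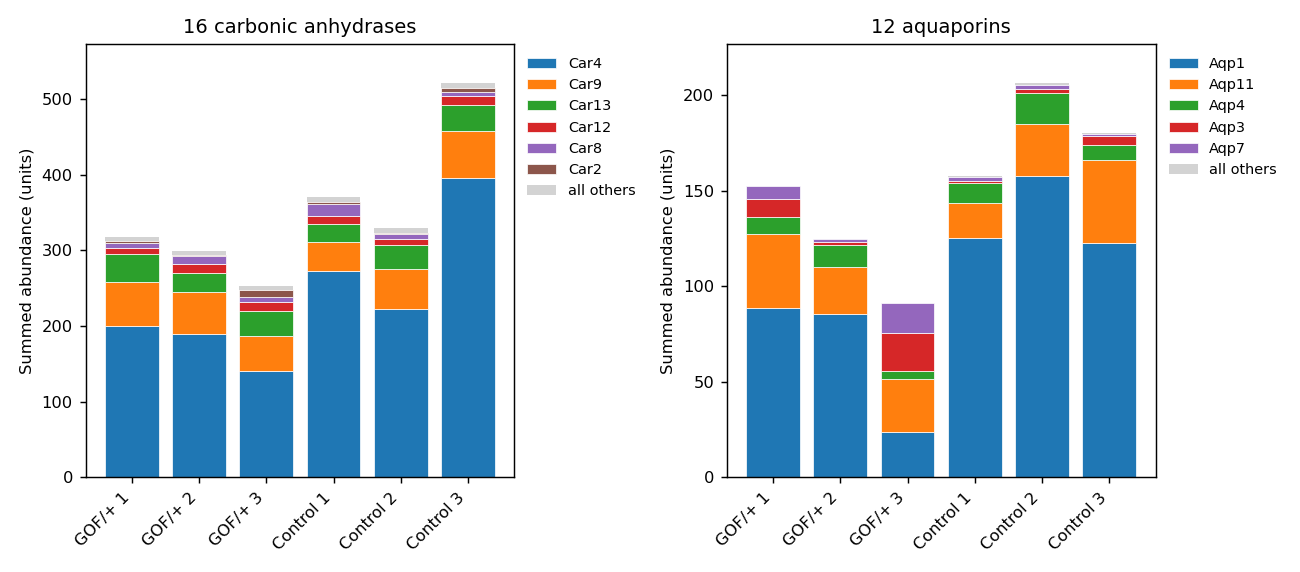
Summed normalized abundance in units (vertical axes from 0) of 16 carbonic anhydrases and 12 aquaporins, one bar a library, split by gene. The Car4 segment is 55.7 to 63.2% of each GOF/+ bar and 67.7 to 76.0% of each Control bar, and the Aqp1 segment is 26.3% of the bar of GOF/+ replicate 3.

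Channels, pumps and regulators that work with CFTR and carbonic anhydrases had higher means more often than lower ones, and none passed the test. Of 29 such genes 27 were tested and 0 passed in limma, with 1 at an unadjusted p under 0.05. On the log2 scale 19 were higher and 8 lower, where 47.3% of all genes were higher. The median log2 difference was 0.19, against -0.02 over all genes. Averaged over the tested partners, log2(value + 1) relative to the Control mean was 0.28, -0.12 and 0.34 in GOF/+ libraries. In Control libraries it was -0.11, -0.08 and 0.19, so GOF/+ replicate 2 was the lowest library and the groups overlapped. 1 gene was higher and 2 were lower without overlap between groups, near the background of 8.34% higher and 8.37% lower, and the values of these 3 follow as a description. Ptger4, a prostaglandin receptor that raises cyclic AMP, had 10.6, 8.22 and 17.0 units in GOF/+ and 6.51, 5.69 and 7.77 units in Control libraries (log2 difference of 0.71 ± 0.26, unadjusted p of 0.0291 and adjusted p of 0.589 in limma; 0.45 without GOF/+ replicate 3). Vipr1, the receptor for vasoactive intestinal peptide, had 71.0, 61.9 and 71.2 units in GOF/+ and 71.6, 98.6 and 93.2 units in Control libraries. Adcy6, an adenylyl cyclase, had 69.4, 69.3 and 56.7 units in GOF/+ and 83.9, 71.2 and 92.6 units in Control libraries. The receptor Ptger4 and the receptor Vipr1 thus lay on opposite sides, each with a narrow gap between the groups in at least 1 pair of libraries.

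Of the remaining partners with the smallest p, the scaffold gene Slc9a3r1, whose protein binds CFTR, had 347, 169 and 605 units in GOF/+ and 121, 133 and 243 units in Control libraries. The basolateral potassium channel gene Kcnq1 had 42.5, 48.5 and 18.4 units in GOF/+ and 57.8, 71.9 and 46.8 units in Control libraries. The bicarbonate cotransporter gene Slc4a7 had 12.7, 9.49 and 12.4 units in GOF/+ and 10.1, 8.10 and 8.43 units in Control libraries. All 3 overlapped between groups. Their log2 differences were 1.06 for Slc9a3r1, -0.76 for Kcnq1 and 0.34 for Slc4a7, and 0.62, -0.35 and 0.28 in that order without GOF/+ replicate 3. The most abundant partner, the guanylin gene Guca2a, had 747, 910 and 1378 units in GOF/+ and 1121, 680 and 890 units in Control libraries.

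**Figure D3:**
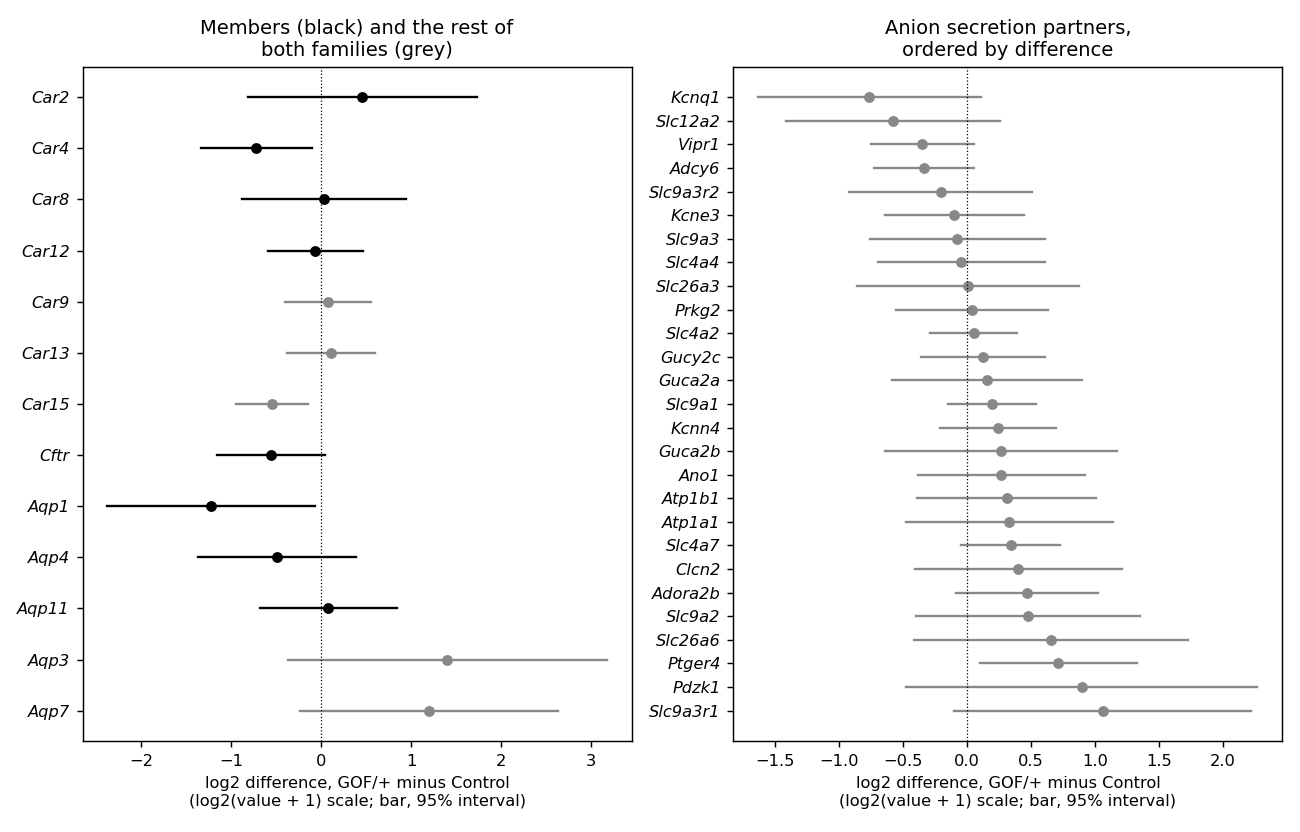
Log2 difference, GOF/+ minus Control, on the log2(value + 1) scale with its 95% interval from limma, for tested members (black) and family relatives (grey) at left and for 27 anion secretion partners at right. The intervals of Car4, Aqp1, Car15 and Ptger4 leave out 0, and 0 of these genes passed after adjustment over all genes.

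Marker lists of cell types varied between libraries, 0 of their genes passed in limma, and their part in the member values was not tested. Of 19 enterocyte genes 18 were higher, with mean scores on the log2(value + 1) scale, relative to the Control mean, of 1.05, -0.23 and 1.53 in GOF/+ and -0.59, -0.21 and 0.79 in Control libraries; summed levels were 7474 to 30016 units in GOF/+ and 5105 to 13424 units in Control libraries. Car4 was lower in all 3 GOF/+ libraries, and the enterocyte score was high in GOF/+ replicates 1 and 3 but not in GOF/+ replicate 2. Car4 was highest in Control replicate 3, where the enterocyte score was high too. All 7 Paneth cell genes and all 5 tested tuft cell genes were lower, and 6 of 7 crypt base genes. Of 7 enteroendocrine genes 6 were higher, 4 of them without overlap, with scores of 0.43, 0.25 and 0.97 in GOF/+ and -0.08, -0.11 and 0.20 in Control libraries. Among all genes tested 8.34% were higher without overlap and 8.37% lower. Crypt base scores were -0.27, 0.05 and -1.21 in GOF/+ and 0.14, 0.22 and -0.37 in Control libraries. GOF/+ replicate 3, the lowest for Car4, Cftr, Aqp1 and Aqp4, was also the lowest there. Stromal genes were higher in every GOF/+ library, at a summed 20.0 to 43.6 units against 4.97 to 8.10 units in Control libraries, and 6 of 6 tested did not overlap. The 8 immune genes summed to 36.3 to 127 units in GOF/+ and 26.4 to 62.7 units in Control libraries.

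Markers of gut region varied as well, and 0 of their genes passed in limma. The 4 ileal genes summed to 486, 537 and 1631 units in GOF/+ and 274, 126 and 295 units in Control libraries, without overlap. Fabp6 alone had 174, 388 and 1101 units in GOF/+ and 156, 5.74 and 74.2 units in Control libraries. Of these genes 3 did not overlap between groups, and Slc51a did, where the background over all genes was 8.34% higher without overlap. 3 tested genes of the proximal intestine were lower by a median log2 difference of -0.23. 1 of them did not overlap, where the background was 8.37% lower. Since the labels give no region, region and genotype cannot be told apart for members whose level depends on position along the gut. Levels of Xist and Y-linked genes marked GOF/+ replicate 1 and Control replicates 1 and 2 as male. With sex as a covariate the log2 difference of Car4 was -0.79 (unadjusted p of 0.0399) and that of Aqp1 -1.03 (unadjusted p of 0.0883), with an adjusted p of 0.921 for each in limma.

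**Figure D4:**
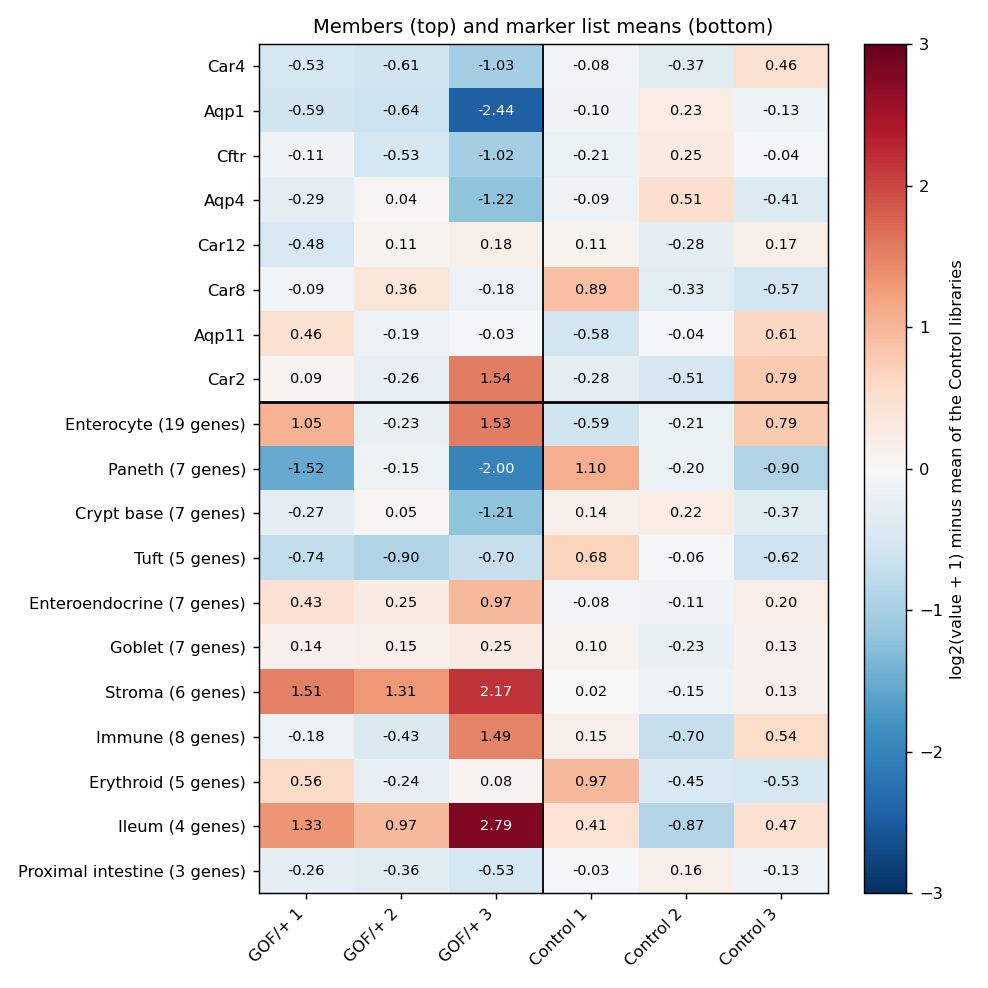
Difference of log2(value + 1) from the average Control library, for 8 members (top) and as the mean over tested genes of 11 marker lists (bottom), by library; red is higher and blue lower. Aqp1 reads -0.59, -0.64 and -2.44 in GOF/+ replicates 1, 2 and 3, and the crypt base list -0.27, 0.05 and -1.21.

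The 7 members with a mean of at least 5 units were set beside each of 8884 other genes by the mean absolute difference of log2(value + 1), each gene centred on its own mean over the 6 libraries. With that many genes and 6 libraries some near matches occur for any pattern. Closest to Car4 were the membrane mucin gene Muc4 (0.09), the agmatinase gene Agmat (0.10) and the kinase gene Grk4 (0.13). Closest to Aqp1 were Add3, Deptor and Pdcd4 (0.13, 0.14 and 0.14). Closest to Cftr were Vsig10, Sptssa and Syne2 (each 0.05).
Aqp4 came closest to Esco2, Spc25 and Mcm6 (0.05, 0.06 and 0.06), which encode a cohesin acetyltransferase, a kinetochore subunit and a subunit of the replicative helicase. Car8 came closest to the ligand gene Wnt3, the receptor gene Ephb3 and the amino acid carrier gene Slc1a4 (0.08, 0.10 and 0.12). Wnt3 had 4.85, 8.02 and 4.93 units in GOF/+ and 11.3, 5.08 and 3.19 units in Control libraries, high in Control replicate 1 as Car8 was. Aqp11 came closest to Cyb5r3, Pcsk5 and the chloride and bicarbonate exchanger gene Slc26a3 (0.06, 0.08 and 0.08). Slc26a3 had 75.5, 45.4 and 43.6 units in GOF/+ and 34.6, 48.9 and 86.7 units in Control libraries. Car12 came closest to Prr3, 1600020E01Rik and 9430015G10Rik (0.05, 0.08 and 0.08). Among the members themselves, Cftr and Aqp4 were the closest pair (0.28) and Car8 and Aqp1 the farthest (0.79).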

How the data were processed

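Per the labels' protocols, poly-T purified messenger RNA was copied from random primers and run on Illumina machines. The authors deposited a normalized signal for each gene; kallisto 0.46.1, DESeq2 1.40.1 and mm9 are named without a role, per the submitters' processing notes. They are not counts (0% of values above 0 are whole), absolute depth is known only through the steps described, and no counting intervals are given. The columns not named Control were taken as the GOF/+ group. 0 value columns lacked a sample. Promoters of Car1, Car2, Car8 and Aqp4 were not used here.

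The 11837 genes averaging 1 unit or more were tested with limma 3.58.1 in R 4.3.3 on log2(value + 1). The fit used a mean-variance trend and Benjamini-Hochberg adjustment at 0.05. Adding 1 before the logarithm understates the change of low genes. On simulated data with these means and spreads a true log2 change of 1 was called for 43.4% of genes and of 2 for 83.0%. In that simulation many genes were raised together, which eases the adjusted threshold, and the noise was independent between genes. The 2 shares are therefore not the chance that a changed member would be called in these libraries. All members were named, with the 6 partners of smallest p and the most abundant gene of each list. The members and lists were chosen with earlier results of these data known. A planned description of protein features was not run, and some marker genes are not reported here. Promoters came from RefSeq on GRCm38.p6, not the build of the files. Tables and figures used Python 3.11.15, pandas 2.3.3, NumPy 2.4.6, SciPy 1.17.1 and matplotlib 3.10.9. Rescaling, filters, pseudocounts, array weights, a replicate block, sex and leaving out each library were tried as alternatives.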

Additional observations from a re-analysis of the deposited data

How the results depend on the processing

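0 members passed in limma under each of 15 alternatives, and the log2 differences of Car4, Cftr, Aqp1 and Aqp4 stayed negative in all 15 but varied in size: array weights gave -0.54, -0.11, -0.62 and -0.25, and Aqp4 was -0.24 without Control replicate 2. Over all genes the 2 calls became 0 without a filter, 1 with a pseudocount of 5, 27 with array weights (whose fit did not fully converge), 0 with the replicate block, 0 with sex as a covariate, and 0 to 4 when each library was left out. Deviations from the group mean correlated at -0.29, 0.33 and 0.32 between libraries numbered 1, 2 and 3. The last 2 were the highest of all GOF/+ and Control pairs. The labels do not say that the numbers pair libraries, so the main fit left them unpaired. The replicate block gave Car4 and Aqp1 an adjusted p of 0.409 and 0.400 in limma. For Car2 and Aqp4 the block gave an unadjusted p of 0.0470 and 0.0340, against 0.421 and 0.228 in the main fit, and an adjusted p of 0.403 and 0.400. Between same-numbered libraries Car2 was always higher and Aqp4 always lower in GOF/+. Without 1 library, the log2 difference of Car2 ran from -0.084 (GOF/+ replicate 3) to 0.85, of Car8 from -0.26 to 0.47 and of Aqp11 from -0.21 to 0.39. Car8 turned to -0.0065 with a pseudocount of 5, -0.29 with array weights and -0.14, -0.14 and -0.26 without GOF/+ replicate 2, Control replicate 2 or Control replicate 3. Car12 turned to 0.14 without GOF/+ replicate 1 and 0.02 without Control replicate 3, and Aqp11 to -0.11 without GOF/+ replicate 1 and -0.21 without Control replicate 1. The cause was not tested. When each library was left out, 2 to 3 members were lower and 0 to 1 higher without overlap between groups, where 11.0 to 17.2% of all genes were lower and 10.7 to 18.6% higher, a check added after seeing the data. Guca2a turned to -0.092 without GOF/+ replicate 3, likewise added.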
